A study of Macaca mulatta with 20 samples.

Results

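CAMP, HBEGF, AIF1, FCER1G and CSF3R are 5 genes of phagocytes chosen by their far higher values in monocytes than in lymphocytes on these same arrays. They were taken as every probe with 1 of these 5 symbols in the platform annotation, which gave 6 of the 7303 probes and 5 of the 5236 named genes. CAMP, HBEGF, FCER1G and CSF3R had 1 probe each. AIF1 had 2, annotated to different transcript records and called AIF1 probe 1 and AIF1 probe 2 here.

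The products act at different steps of a phagocyte's work. CAMP encodes the cathelicidin precursor, which is cut to release a peptide that kills microbes and attracts leukocytes. HBEGF encodes a membrane-bound growth factor that proteases shed to activate EGF receptors on other cells. FCER1G encodes the gamma chain that couples several Fc receptors to tyrosine kinases through its ITAM motif, and CSF3R encodes the receptor of the granulocyte growth factor G-CSF. AIF1, also called IBA1, is a calcium-binding protein that bundles actin in cells of the monocyte and macrophage lineage and in microglia.

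The arrays measured monocytes, helper T cells, cytotoxic T cells and B cells of 5 adult females (rhesus macaques), isolated from their blood. The animals held dominance ranks 1 (high) to 5 (low) and came from 5 social groups, and the study concerned social status and expression. No treatment is named in the labels. With 1 animal per rank, a difference by rank and one by animal or by social group cannot be told apart. Of the 20 arrays, 18 were used: 5 of monocytes, 5 of helper T cells, 4 of cytotoxic T cells and 4 of B cells.

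The cytotoxic T cell and B cell arrays of the rank 4 animal were left out. Their correlation over probes was 0.876 between the pair and 0.148 to 0.193 with any of the 18 arrays kept. The T cell gene CD3D (7.87) in the first and the B cell gene CD79B (8.36) in the second were below the array median. In these 2 arrays AIF1 probe 1 was at 11.04 and 11.42 log2, AIF1 probe 2 at 8.95 and 8.65, HBEGF at 8.63 and 8.21, CSF3R at 8.44 and 8.27, CAMP at 7.81 and 7.69, and FCER1G at 7.75 and 7.76. In the 18 arrays used, the marker list of each type averaged highest in its own arrays. For the 2 measured helper T cell markers the margin was small, with 8.20 to 8.54 in helper arrays and up to 7.95 in monocyte arrays. The 7 measured monocyte markers averaged 11.82 to 12.79 in monocyte arrays and 8.03 to 8.36 in lymphocyte arrays, while 11 T cell markers averaged 7.79 to 7.82 in monocyte arrays. The B cell arrays averaged 8.12 to 8.49 for the T cell markers, with means of 10.16 for CD3D and 9.38 for CD8A. In the helper arrays CD8A averaged 10.09. All values are normalized log2 expression, and every array holds the same distribution (median 8.39, lower quartile 8.04, highest value 14.77). Differences between cell types are taken within a probe. Levels, places and sizes set side by side for different probes are a description, since probes may respond unequally to macaque RNA.

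The antimicrobial gene CAMP was bright in every monocyte array and dim in every lymphocyte array. It was at 13.66, 13.35, 13.78, 13.95 and 13.35 in monocytes of ranks 1 to 5. In helper T cells it was at 7.76, 7.91, 7.70, 7.71 and 7.72. Cytotoxic T cells of ranks 1, 2, 3 and 5 had 7.77, 8.03, 7.61 and 7.71, and B cells of the same ranks 7.78, 7.94, 7.63 and 7.77. The spread within monocytes and within lymphocytes was small beside the gap between them. The lowest monocyte array lay 5.32 log2 above the highest lymphocyte array. The mean was 13.62 ± 0.27 (SD, n = 5) in monocytes, 7.76 ± 0.08 (n = 5) in helper T cells, 7.78 ± 0.18 (n = 4) in cytotoxic T cells and 7.78 ± 0.12 (n = 4) in B cells. Within animals the difference between monocytes and helper T cells ran from 5.44 in rank 2 to 6.24 in rank 4, with a fitted mean of 5.86 ± 0.11 (SE).

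HBEGF, the shed ligand of EGF receptors, showed the same split. Its values were 13.74, 13.25, 13.85, 13.76 and 14.02 in monocytes of ranks 1 to 5. Helper T cells had 7.88, 8.04, 7.79, 7.95 and 7.95, cytotoxic T cells 7.91, 7.94, 7.76 and 7.88, and B cells 7.97, 7.99, 7.93 and 8.17. The rank 2 animal had the lowest monocyte value and the rank 5 animal the highest. Means were 13.72 ± 0.29 (SD, n = 5) in monocytes, 7.92 ± 0.09 (n = 5) in helper T cells, 7.87 ± 0.08 (n = 4) in cytotoxic T cells and 8.01 ± 0.11 (n = 4) in B cells. The fitted difference was 5.80 ± 0.10 (SE) against helper T cells, 5.85 ± 0.11 against cytotoxic T cells and 5.70 ± 0.11 against B cells.

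**Figure D1:**
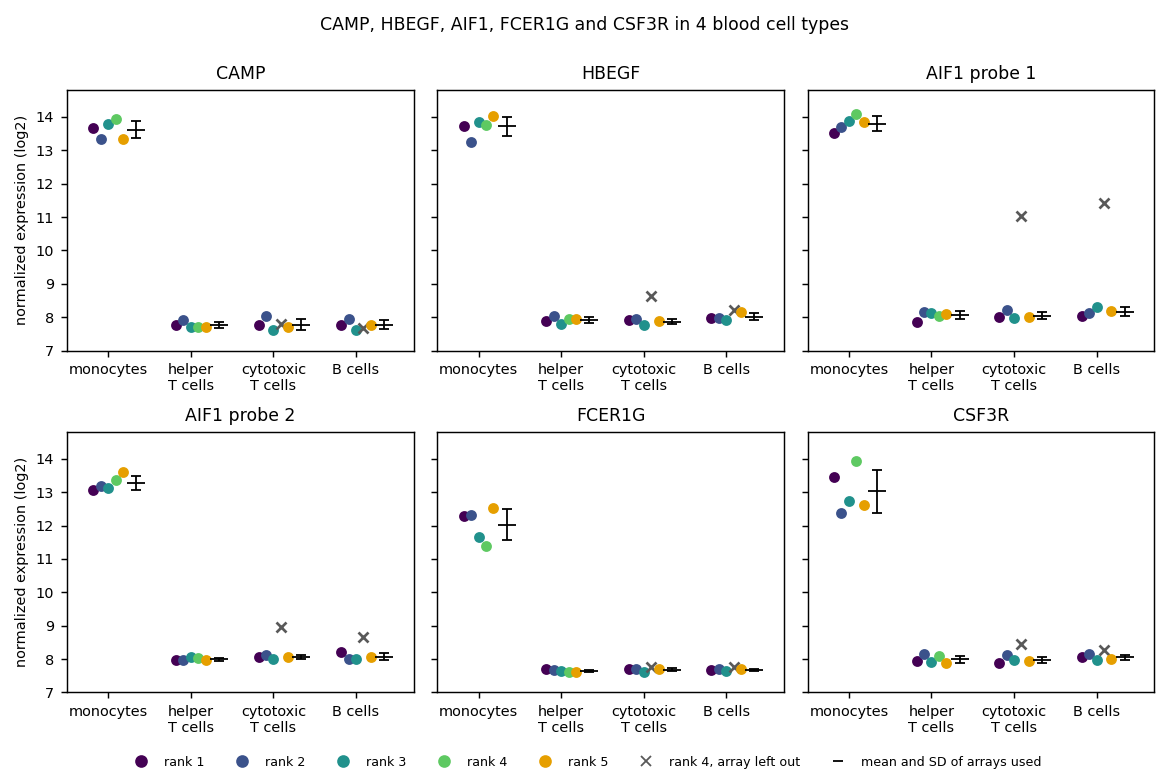
Normalized expression (log2, vertical axis) of the 6 probes in monocytes, helper T cells, cytotoxic T cells and B cells, 1 point per array coloured by the rank of the animal, with the mean and SD of the arrays used beside the points and crosses for the 2 rank 4 arrays left out. Every monocyte array lies at 11.40 or above and every lymphocyte array used at 8.32 or below, while AIF1 probe 1 is at 11.04 and 11.42 in the arrays left out.

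FCER1G, the shared signalling chain of Fc receptors, had the narrowest lymphocyte values of the 5 genes. Monocytes of ranks 1 to 5 had 12.28, 12.31, 11.65, 11.40 and 12.51. Helper T cells had 7.69, 7.68, 7.64, 7.62 and 7.61, cytotoxic T cells 7.71, 7.70, 7.62 and 7.69, and B cells 7.66, 7.69, 7.63 and 7.69. All 13 lymphocyte values lay within 7.61 and 7.71, under the lower quartile of the arrays (8.04), and all monocyte values lay above them by 3.69 or more. The mean was 12.03 ± 0.48 (SD, n = 5) in monocytes, 7.65 ± 0.03 (n = 5) in helper T cells, 7.68 ± 0.04 (n = 4) in cytotoxic T cells and 7.66 ± 0.03 (n = 4) in B cells. FCER1G is known in humans and mice to be carried by natural killer (NK) cells too, and the cytotoxic T cell arrays were high in the list of NK cell markers. The 8 measured markers averaged 9.56 to 10.19 in cytotoxic T cell arrays and 8.18 to 9.02 in helper T cell arrays. They averaged 8.19 to 8.37 in monocyte arrays and 7.93 to 7.94 in B cell arrays. In cytotoxic T cells GNLY (12.67) and KLRD1 (12.28) were the highest, and KLRC1 (8.73), KLRB1 (8.54) and NCAM1 (7.75) the lowest. NCAM1 went the other way, with 10.56 in monocytes. KLRD1 and GNLY are also expressed by cytotoxic T cells themselves. FCER1G stayed at 7.71 or below in each cytotoxic T cell array used. The choice of genes favoured probes dim in lymphocytes, so this low value is in part a result of the choice. The share of NK cells in these arrays was not tested.

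CSF3R, the G-CSF receptor, was the most variable of the 5 genes among monocyte samples. It was at 13.45, 12.37, 12.74, 13.92 and 12.61 in monocytes of ranks 1 to 5, so that ranks 4 and 1 stood above the other 3 animals. Helper T cells had 7.94, 8.14, 7.90, 8.08 and 7.89, cytotoxic T cells 7.89, 8.11, 7.96 and 7.95, and B cells 8.06, 8.16, 7.97 and 7.99. Even the lowest monocyte value lay 4.21 above the highest lymphocyte value. The means were 13.02 ± 0.65 (SD, n = 5) in monocytes, 7.99 ± 0.11 (n = 5) in helper T cells, 7.98 ± 0.10 (n = 4) in cytotoxic T cells and 8.05 ± 0.09 (n = 4) in B cells. The difference between monocytes and helper T cells of the same animal ran from 4.23 in rank 2 to 5.84 in rank 4.

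AIF1, the actin-bundling protein, was measured by 2 probes that gave the same split. AIF1 probe 1 was at 13.51, 13.71, 13.89, 14.08 and 13.84 in monocytes of ranks 1 to 5 and between 7.87 and 8.32 in the 13 lymphocyte arrays. AIF1 probe 2 was at 13.07, 13.17, 13.13, 13.36 and 13.60 in monocytes and between 7.96 and 8.21 in lymphocytes. Rank 1 was the lowest monocyte array by both probes, whereas the highest was rank 4 by probe 1 and rank 5 by probe 2. The fitted difference between monocytes and helper T cells was 5.74 ± 0.07 (SE, n = 5) by probe 1 and 5.27 ± 0.08 by probe 2. The B cell difference of probe 1 rested in part on the array left out: it was 5.60 ± 0.08 with 18 arrays and 4.99 with all 20, and against cytotoxic T cells 5.72 ± 0.08 with 18 and 5.15 with 20.

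By the difference to the nearest other cell type, CAMP was number 3 of the 7303 probes, HBEGF 4, AIF1 probe 1 5, AIF1 probe 2 7, CSF3R 13 and FCER1G 16. The nearest type was cytotoxic T cells for CAMP, helper T cells for FCER1G and B cells for the others. All 6 probes were higher than in each other type by at least 1 log2 with an adjusted p under 0.05 by limma, a rule that 366 of the 7303 probes (5.01%) met. By the same fit 61.5%, 59.3% and 53.6% of all probes differed between monocytes and helper T cells, cytotoxic T cells and B cells, in either direction. Since the genes were chosen for this difference, their place and calls are a description and carry no test. Most lymphocyte values lay under the arrays' lower quartile, and how far they stood above background is unknown. In sorted bulk RNA, fewer cells of a type and less RNA per cell cannot be told apart.

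Among the 3 lymphocyte types no difference was detected for the 5 genes. The choice of genes did not compare these types with each other, but it favoured probes that are dim in all 3. The lymphocyte values lay between 7.61 and 8.32 log2, under the array median of 8.39, which left little room for a difference. The absence of calls is therefore in part a result of the choice, and the shares of all probes given next are not a like-for-like background. With limma 0 of 18 tests (6 probes in 3 contrasts) passed at an adjusted p under 0.05 or at an unadjusted p under 0.05, where 2.64% of all probes were called between cytotoxic and helper T cells, 25.2% between B and helper T cells and 24.9% between cytotoxic T cells and B cells. The smallest adjusted p was 0.262, for AIF1 probe 1 between B cells and helper T cells (0.14 ± 0.08 log2, 95% interval -0.04 to 0.31). The intervals of that fit are widened by the spread among monocytes, which reached from -0.51 to 0.61 for CSF3R. A fit of the 13 lymphocyte arrays alone, added after seeing this, gave estimates between -0.14 and 0.10, with all intervals within -0.27 and 0.26, and again 0 of 18 tests passed after adjustment.

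HBEGF was the 1 probe with an unadjusted p under 0.05 in the lymphocyte fit. It was lower in cytotoxic T cells than in B cells by -0.14 ± 0.05 log2 (limma, adjusted p = 0.0797, 95% interval -0.27 to -0.02). In that fit FCER1G differed between cytotoxic and helper T cells by 0.03 ± 0.04 (95% interval -0.07 to 0.12) and CAMP by 0.01 ± 0.05 (-0.10 to 0.12). In the order of the means, B cells came first among lymphocytes for HBEGF, AIF1 and CSF3R and cytotoxic T cells for FCER1G, while CAMP was level in cytotoxic T cells and B cells at 7.78. No neighbours in these orders were separated by a test.

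**Figure D2:**
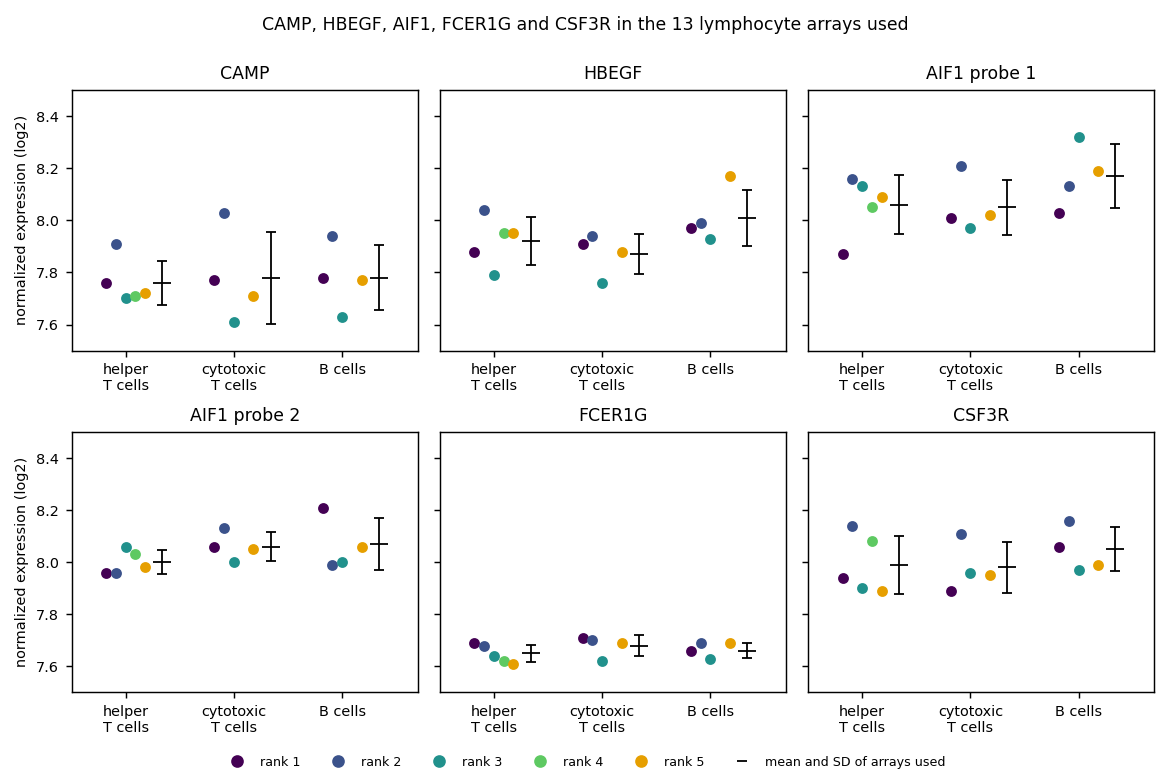
Normalized expression (log2, vertical axis from 7.5 to 8.5) of the 6 probes in the 13 lymphocyte arrays used, 1 point per array coloured by rank, with mean and SD. The 3 types overlap for every probe, and for CAMP the rank 2 animal is the highest and the rank 3 animal the lowest in each type.

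The highest and the lowest animal for CAMP were the same in each lymphocyte type, in dim values and without a test. Rank 2 had the highest CAMP value in helper T cells (7.91), cytotoxic T cells (8.03) and B cells (7.94), and rank 3 had the lowest in each (7.70, 7.61 and 7.63). In monocytes the order was another one, with rank 2 at 13.35, level with rank 5 as the lowest, and rank 3 at 13.78. CSF3R was also highest in the rank 2 animal in each lymphocyte type and lowest there in monocytes. In helper and cytotoxic T cells, though not in B cells, rank 2 was also highest for HBEGF (8.04 and 7.94). The same held for AIF1 probe 1 (8.16 and 8.21). Whether dim probes at large were shifted in this animal was not tested.

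The spread among monocyte samples separated the genes. The SD over the 5 animals was 0.65 for CSF3R and 0.48 for FCER1G, larger than or equal to that of 97.6% and 93.2% of all probes in the same arrays. For CAMP (0.27), HBEGF (0.29), AIF1 probe 1 (0.21) and AIF1 probe 2 (0.21) these shares were 74.1%, 76.8%, 64.7% and 64.8%. All probes include many dim ones, so these shares are not a background of equally bright genes. Among the 7 measured monocyte markers the SD ran from 0.14 for CST3 to 1.00 for CSF1R, with 0.89 for CD14. The animals were ordered differently by the 2 receptor genes. FCER1G was lowest in rank 4 (11.40), the animal with the highest CSF3R (13.92) and the highest CAMP (13.95).

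**Figure D3:**
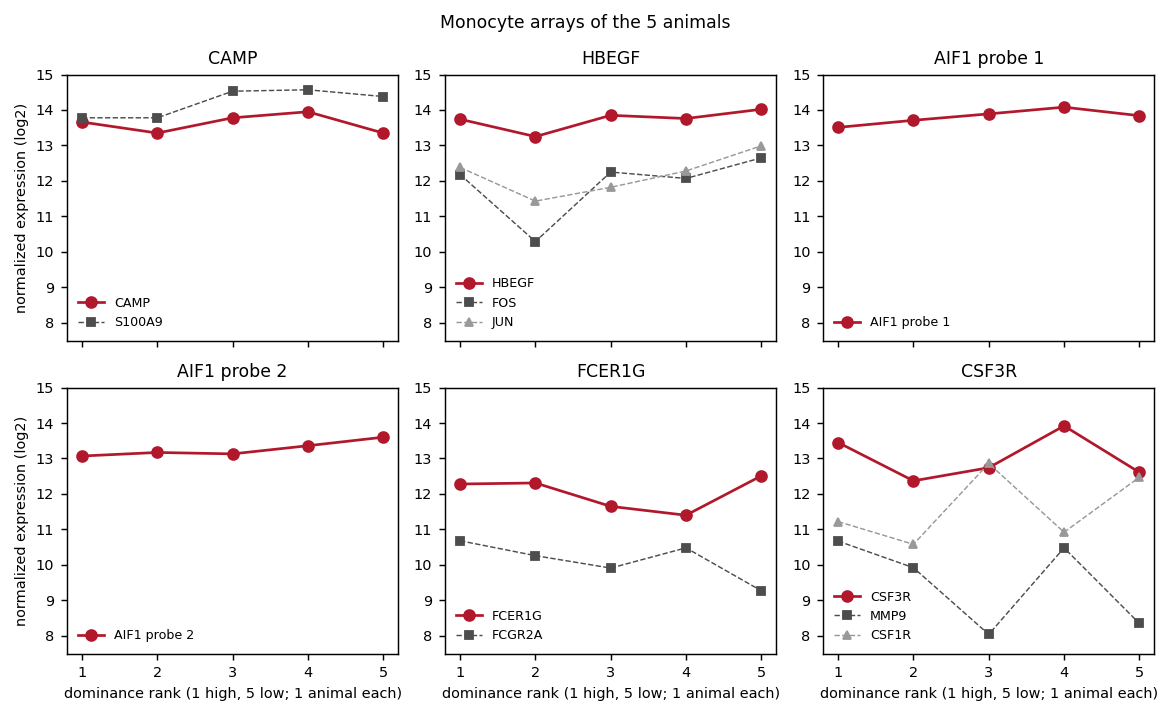
Normalized expression (log2, vertical axis) of the 6 probes in the monocyte arrays of the 5 animals, ordered by dominance rank on the horizontal axis, with related genes as grey dashed lines. CSF3R and MMP9 are both highest in ranks 1 and 4, but in rank 2 CSF3R is lowest and MMP9 is not. HBEGF, FOS and JUN are all lowest in rank 2, and CSF1R is highest in ranks 3 and 5. The grey genes were picked after their values were seen, and other genes of the same lists, such as S100A12 and EGR3, have other orders.

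Granulocyte genes were looked at beside CSF3R and CAMP, since both are best known from neutrophils. Of 9 measured granulocyte markers 5 were higher in monocytes than in the mean of the other types (3 with all 20 arrays). Another 4 did not pass, beside 28.7% of all probes higher. Only MMP9, a matrix protease, was enriched by the rule above. With dim probes left out of the test the count was 0, which need not mean that the calls were lost. The list averaged 8.01 to 8.35 in monocyte arrays, 7.78 to 7.84 in helper T cells, 7.78 to 7.83 in cytotoxic T cells and 7.82 to 7.88 in B cells. In monocyte arrays LTF, a protein of neutrophil granules, averaged 8.16, MMP8, the neutrophil collagenase, 7.63 and ALPL 7.78, and neither these nor CXCR1 passed the test. MMP9 was at 10.67, 9.92, 8.04, 10.48 and 8.35 in monocytes of ranks 1 to 5, so that it was highest in ranks 1 and 4, as CSF3R was. In rank 2 they differed, since MMP9 (9.92) was near its values in ranks 1 and 4 while CSF3R (12.37) was lowest. CXCR2, a chemokine receptor of neutrophils, was at 8.48, 8.11, 7.99, 8.67 and 8.09, also highest in ranks 1 and 4. These 2 markers were picked after their values were seen, and others were ordered differently: S100A12 was at 7.92, 8.38, 8.15, 8.02 and 8.39, lowest in ranks 1 and 4, CXCR1 was lowest in rank 4 (7.87), and MPO lowest in rank 1 (8.19). The part of granulocytes in the CSF3R values was not tested. CSF1R, the receptor of the macrophage growth factor M-CSF, was at 11.22, 10.58, 12.86, 10.92 and 12.47, highest in ranks 3 and 5.

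Immediate early genes, which rise within minutes of a stimulus, were set beside HBEGF, whose transcript is itself inducible. Of 9 measured genes 7 were higher in monocytes, 0 lower, and JUN and FOS did not pass (limma), beside 28.7% of all probes higher and 36.5% lower. The list mean was 10.62 to 11.51 over monocyte arrays and 8.81 to 10.46 over lymphocyte arrays. It was lowest in rank 2 and highest in rank 5 among monocytes, the animals with the lowest and highest HBEGF. FOS was at 12.18, 10.29, 12.25, 12.07 and 12.65 and JUN at 12.38, 11.43, 11.82, 12.28 and 12.99 in monocytes of ranks 1 to 5, 2 genes picked after their values were seen. Other genes of the list went otherwise: EGR3 was highest in rank 2 (9.47), and PPP1R15A was lowest in rank 1 (11.59), with 13.38 in rank 2. EGR1 (2.61 ± 0.13 log2, adjusted p = 1.02e-09), FOSB (2.57 ± 0.33), PPP1R15A (2.19 ± 0.17) and EGR3 (1.29 ± 0.11) rose most, and ATF3 rose by 0.38 ± 0.08. The part of these genes in the HBEGF values was not tested.

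No slope with dominance rank was detected for the 5 genes in monocytes. Rank was not used to choose them. With limma, 0 of 6 probes and 0 of all 7303 (0%) had a slope at an adjusted p under 0.05, and 471 of the 7303 had one at an unadjusted 0.05. AIF1 probe 2 had the largest slope, 0.12 ± 0.04 log2 per rank step toward low rank (95% interval 0.03 to 0.22, unadjusted p = 0.0189, adjusted p = 0.647). An exact two-sided permutation of the 5 ranks over 120 orders gave p = 0.0333 for it (0.74 adjusted over all probes), where the smallest possible p is 0.0167. AIF1 probe 1 had a slope of 0.10 ± 0.05 (adjusted p = 0.647 by limma, exact permutation p = 0.133) and HBEGF of 0.11 ± 0.07 (adjusted p = 0.675, exact permutation p = 0.3). For CAMP (-0.00 ± 0.08), FCER1G (-0.05 ± 0.14) and CSF3R (-0.01 ± 0.18) the intervals were -0.21 to 0.20, -0.39 to 0.30 and -0.48 to 0.46, so that for the 2 receptor genes sizeable slopes in either direction were not detectable with 5 animals.

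Taken as the difference between monocytes and helper T cells of the same animal, the slopes were also short of the threshold. AIF1 probe 2 had 0.11 ± 0.05 per rank step (limma adjusted p = 0.756) and HBEGF 0.10 ± 0.09 (adjusted p = 0.824), and of the 7303 probes 0 (0%) passed, against 453 before adjustment. This asks whether the slope differs between the 2 types that have all 5 arrays, and no such difference was detected.

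Genes that work with the 5 were counted from lists of textbook roles, by the contrast of monocytes with the mean of the other 3 types. The background of that contrast was 28.7% of probes higher and 36.5% lower, and over the 5236 named genes 1517 were higher, 2050 lower, and the median difference was -0.03. A gene with several probes is given by the probe with the highest mean. In a list of Fc receptors, partners of FCER1G and ITAM signalling genes, 6 of 10 measured genes were higher, 1 was lower and 3 did not pass. The median was 0.61. The list is wider than the partners of the gamma chain, since it also holds the inhibitory FCGR2B. The largest differences were those of the kinase FGR (2.65 ± 0.20 log2, adjusted p = 6.17e-08, 1 of its 2 probes), the inhibitory Fc receptor FCGR2B (2.48 ± 0.10), the activating Fc receptor FCGR2A (2.10 ± 0.14, all of its 3 probes) and LILRA2 (1.95 ± 0.24), which signals through the gamma chain. FGR averaged 11.44 in monocytes, and B cells had 10.39, helper T cells 7.64 and cytotoxic T cells 8.48. The FCGR2 genes are near-identical in parts and their probes may not separate them. FCER1A, the IgE-binding chain that pairs with the gamma chain, was higher by 0.73 ± 0.15 (adjusted p = 0.000795), at 8.61 in monocytes. CLEC4E (0.03 ± 0.05) and GP6 (0.07 ± 0.04), which also use the gamma chain, did not pass, and VAV1, an exchange factor downstream of ITAM receptors, was lower (-0.24 ± 0.07), a call that was lost without the animal of rank 1, 2 or 5.

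**Figure D4:**
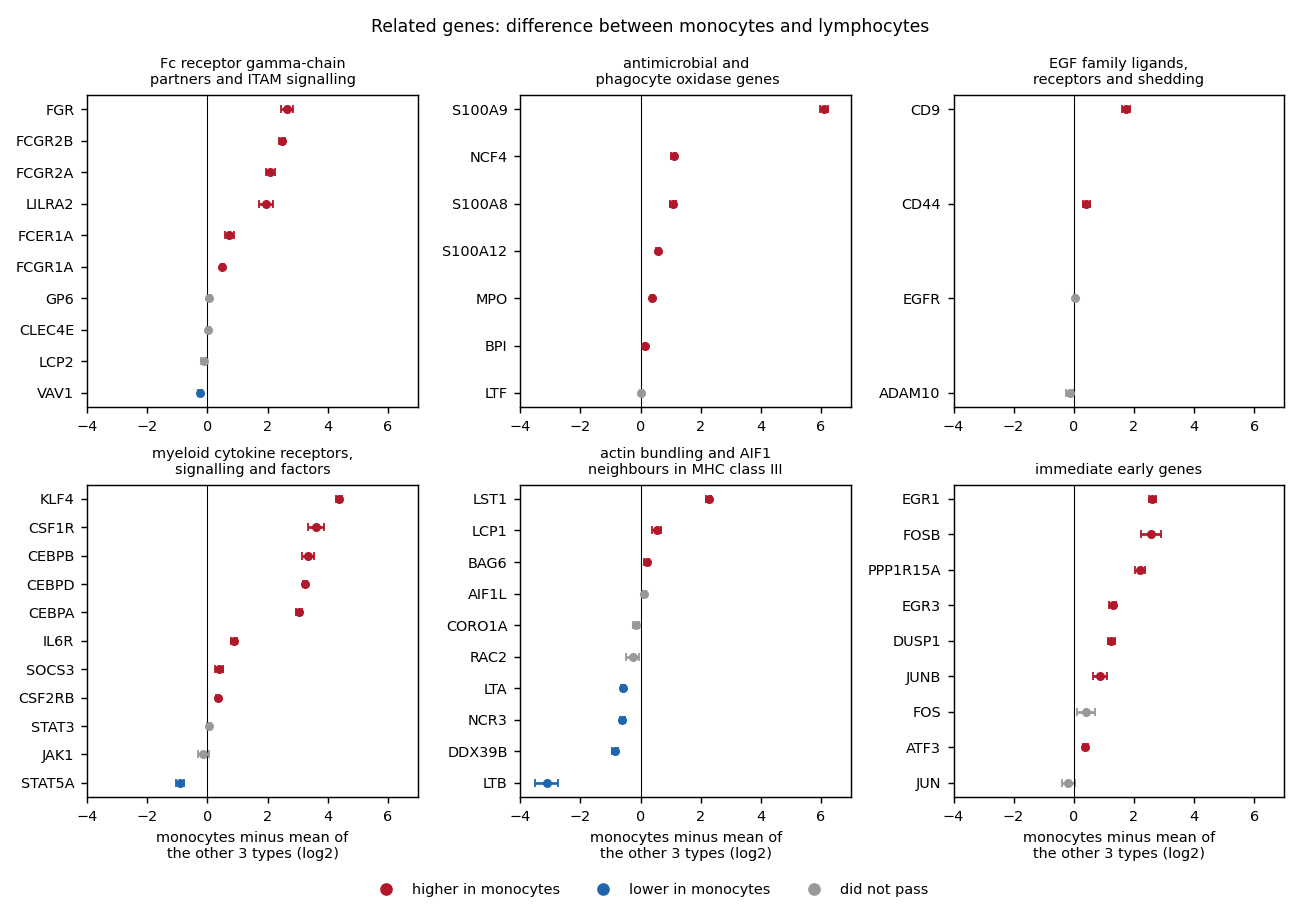
Difference between monocytes and the mean of the other 3 cell types (log2, horizontal axis, points with SE bars) for the measured genes of 6 lists, in red where higher, blue where lower and grey where the test was not passed. In the list of myeloid receptors and factors 8 of 11 genes are higher, and in the list of actin bundling genes and AIF1 neighbours 3 of 10 are higher and 4 lower. Of all named genes 29.0% are higher and 39.2% lower.

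Antimicrobial and oxidase genes, the companions of CAMP, were higher in 6 of 7 measured cases, with 1 that did not pass and a median of 0.57. Of all named genes 29.0% were higher. With dim probes left out of the test, 2 genes of the list were higher, which need not mean that the other calls were lost. Apart from S100A9 (6.09 ± 0.14 log2, adjusted p = 6.56e-13) the differences were far smaller than that of CAMP. The oxidase subunit NCF4 was higher by 1.09 ± 0.09 (1 of its 2 probes), S100A8 by 1.06 ± 0.10 and S100A12 by 0.57 ± 0.06. The granule gene BPI was higher by 0.14 ± 0.04 (limma, adjusted p = 0.00432), at 7.97 in monocytes, and LTF did not pass (0.03 ± 0.05). Dim probes as a whole were slightly higher in monocytes. The median of the 1826 dimmest probes was 7.971 to 7.996 in monocyte arrays and 7.950 to 7.961 in lymphocyte arrays. The part of this shift in small differences such as that of BPI was not tested. S100A8 was at 8.95 in monocytes, against 7.84 to 7.90 in the 3 lymphocyte types.

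Of the EGF family and its shedding machinery, 4 of 17 listed genes were measured, 2 of them higher, 0 lower, with a median of 0.23. CD9, a tetraspanin that associates with the HBEGF precursor, was higher by 1.74 ± 0.13 log2 (adjusted p = 6.25e-08, 1 of its 2 probes), at 9.88 in monocytes. CD44 was higher by 0.42 ± 0.11, at 12.89 in monocytes and 12.03 to 12.83 in lymphocytes. The receptor EGFR did not pass (0.04 ± 0.04) and was at 7.67 to 7.72 in all 4 types. ADAM10, a sheddase, did not pass either (-0.13 ± 0.12, 10.46 in monocytes).

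Cytokine receptors and myeloid factors, the setting of CSF3R, were higher in 8 of 11 cases and lower in 1, with a median of 0.89. KLF4 rose by 4.36 ± 0.10 log2 (adjusted p = 5.57e-13), CSF1R by 3.62 ± 0.26, CEBPB by 3.34 ± 0.21 and CEBPD by 3.25 ± 0.06. KLF4 and the C/EBP proteins are transcription factors of monocyte and granulocyte differentiation. CEBPB was at 14.01 in monocytes and at 9.92 to 11.28 in the lymphocyte types, whereas CEBPD was at 11.19 in monocytes and at most 8.01 elsewhere. Of the signal transducers of the G-CSF receptor, STAT3 (0.05 ± 0.06, by its brighter probe, the other being higher) and JAK1 (-0.13 ± 0.17) did not pass, and STAT5A was lower (-0.90 ± 0.13).

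In the list of actin bundling genes and genes near AIF1 in the MHC class III region, 3 of 10 were higher and 4 lower. These shares were near the 29.0% and 39.2% of all named genes. Another 3 did not pass, and the median was -0.21. LST1, a leukocyte protein encoded near AIF1, was higher by 2.26 ± 0.09 log2 (adjusted p = 1.83e-10, both probes). LTB, encoding lymphotoxin beta, was lower by -3.12 ± 0.38, DDX39B, an RNA helicase, by -0.85 ± 0.09 and NCR3, an activating receptor of killer cells, by -0.61 ± 0.08. AIF1L, the paralogue of AIF1, did not pass (0.12 ± 0.06, 8.34 in monocytes), and nor did CORO1A (-0.16 ± 0.10), an actin-binding protein.

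Most of the genes that flank the 5 on the macaque chromosomes did not share their pattern. For each gene the 3 nearest measured genes on either side in RefSeq's gene order (T2T-MMU8v2.0) were taken, a comparison added after seeing the data. Of these 30 genes 6 were higher in monocytes, 12 lower and 12 did not pass, beside 28.7% and 36.5% of all probes. The median difference was -0.04. The rule of at least 1 log2 above each other type was met by 4 of the 30 (FCGR2B, FCGR2A, LST1 and STK40). That share was above the 5.01% of all probes and 5.46% of named genes, and was not tested. CAMP had 4 lower and 0 higher neighbours, among them SMARCC1 (-0.51 ± 0.07), a subunit of a chromatin remodeller, and DHX30 (-0.68 ± 0.07). The higher ones were FCGR2B and FCGR2A beside FCER1G, LST1 and BAG6 (0.21 ± 0.08) beside AIF1, CXXC5 (2.06 ± 0.29) beside HBEGF, and the pseudokinase STK40 (2.03 ± 0.25) beside CSF3R.

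Outside the 5 genes themselves, which were left out of this ranking, the genes most like each over the 18 arrays were taken. Pearson correlations over arrays are given as a description only: the 18 points fall into 5 monocyte and 13 lymphocyte arrays, share animals and a common normalization, and mostly measure that gap. CAMP was most like TLR4 (0.997), the lipopolysaccharide receptor, S100A9 (0.997) and CPVL (0.997), a carboxypeptidase. HBEGF was most like CPVL (0.998), SGK1 (0.998), a kinase induced by steroids and stress, and S100A9 (0.997). AIF1 was most like CPVL, TLR4 and S100A9 (0.998, 0.998 and 0.997). FCER1G was most like TYMP (0.996), thymidine phosphorylase, CPVL (0.993) and DUSP6 (0.993), a phosphatase of ERK, and CSF3R was most like NAMPT (0.995), an enzyme of NAD synthesis, TLR4 (0.995) and CD93 (0.992). CPVL was among the first 3 for 4 of the 5 genes, and TLR4 and S100A9 for 3 each. Among the 6 probes themselves the values ran from 0.975 between FCER1G and CSF3R to 0.998 between the 2 AIF1 probes, and some were above those of the genes just named, as for CAMP with AIF1 probe 1 (0.998).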

How the data were processed

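RNA of 4 blood cell types from 5 macaques was hybridised to Illumina arrays of human probes. The deposited values were used as log2: the authors had normalized all 20 columns to 1 distribution, and the submitters' processing notes name lumi with no version. Log base, background correction and probe filter are not stated there, and a variance-stabilised scale would shrink the differences of dim probes. The table named as non-normalized equals the series' value table. Probes were named through the platform annotation (6055 with 1 symbol, 1 with several, 1247 with none).

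The members and lists were chosen with earlier results of these data known. Cell types were compared with limma 3.58.1 (R 4.3.3, lmFit and eBayes) on 18 arrays with the animal as a fixed block, with Benjamini-Hochberg adjustment over all 7303 probes per contrast and a threshold of 0.05. Rank was fitted as a slope over the 5 monocyte arrays. The scripts were tested on simulated data. Same-numbered arrays come from 1 animal by their titles. Their deviations from the type means correlated at 0.238 to 0.809 (median 0.478, 25 pairs). Between arrays of different animals the correlations were -0.707 to 0.531 (median -0.248, 96 pairs), so the ranges overlap. Named were all member probes, per pathway list the 4 largest changes and up to 2 smallest, the 3 genes most like each member, and markers beside a result. FCER1A, VAV1, STAT5A, FOS and the neighbouring genes were named after their values were seen. Alternatives were all 20 arrays, no block, a random block, each animal left out, dim probes left out and other probe rules. The number of arrays limits the precision.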

Additional observations from a re-analysis of the deposited data

Results flagged for a closer look

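CAMP in helper T cells of the rank 2 animal was at 7.91 log2, while the other 4 helper arrays lay between 7.70 and 7.76. The gap to the nearest of them is 0.721 of the range of the 5 values, above the 0.71 that Dixon's test allows for 5 samples. This was 1 of 24 sets of a probe in a cell type, and chance gives about 1 such value in 20 sets. The same animal was also highest for CAMP in cytotoxic T cells (8.03) and B cells (7.94).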

How the results depend on the processing

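The differences between monocytes and each lymphocyte type kept their direction for all 6 probes under every alternative run (180 values, 4.253 to 5.997 log2). With all 20 arrays those of AIF1 probe 1 moved by more than the SD among monocytes, to 5.15 against cytotoxic T cells and 4.99 against B cells. AIF1 probe 2 gave 5.21 against the mean of the other 3 types, beside 5.69 by probe 1. None of 198 alternative tests between lymphocyte types passed (smallest adjusted p 0.0797), nor did any of 54 of the rank slopes (smallest 0.405, slopes -0.33 to 0.22), and leaving out any 1 animal left 0 probes with a slope.

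Counts of probes higher and lower fell with 20 arrays to 1255 and 1574 for monocytes against the mean of the other 3, 1133 and 1458 against helper T cells, 1123 and 1238 against cytotoxic T cells and 1051 and 1035 against B cells. They fell to 3 and 19 for cytotoxic against helper T cells, 276 and 395 for B cells against helper T cells and 237 and 225 for cytotoxic T cells against B cells. With dim probes left out, so that fewer probes were tested, the higher counts in the 4 monocyte contrasts were 1059, 1045, 1007 and 910, and 67 for cytotoxic against helper T cells. Without the replicate block 53 probes were lower in cytotoxic than helper T cells, 564 and 595 were higher and lower in B cells than helper T cells, and 571 and 536 in cytotoxic T cells than B cells; the block changed no call of the 5 genes. Leaving out 1 animal gave 42 to 93 probes higher and 30 to 76 lower for cytotoxic against helper T cells, with 42 and 30 without rank 1, 58 and 48 without rank 3 and 68 and 49 without rank 5. At a minimum of 2 log2, 106 probes were enriched in monocytes.

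Among the lists, 20 arrays gave 0 lower Fc receptor genes, 1 higher EGF family gene and 1 higher gene of the AIF1 list. Leaving out 1 animal gave 0 to 2 lower Fc receptor genes (0 without rank 1, 2 or 5, where VAV1 missed the threshold, and 2 without rank 4), and 2 to 3 higher genes of the AIF1 list. With dim probes left out 0 granulocyte markers, 3 Fc receptor, 2 antimicrobial and 5 myeloid receptor genes were higher and 2 genes of the AIF1 list lower. Dim genes were not tested in that setting, so every count given for it can be lower without a lost call. Where no construction is named, the cause was not tested. Detection calls were not used here, so how far the dim lymphocyte values lie above background is unknown.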

Other observations

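In the 2 rank 4 arrays left out, AIF1 probe 1 was at 11.04 (cytotoxic T cells) and 11.42 (B cells), between its lowest monocyte value (13.51) and its highest lymphocyte value (8.32). AIF1 probe 2 was at 8.95 and 8.65, between its own lowest monocyte value (13.07) and highest lymphocyte value (8.21). Of the monocyte markers, CD14 was at 9.14 and 9.22, CST3 at 8.26 and 8.20 and S100A9 at 7.85 and 8.04 in the same arrays.

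Of 4 measured platelet markers 1 was higher in monocytes (0 with all 20 arrays or with dim probes left out) and 3 did not pass, a share near the 28.7% of all probes, and the list averaged 7.96 to 8.02 in monocyte arrays, 7.91 to 7.94 in helper T cell arrays, 7.87 to 7.94 in cytotoxic T cell arrays and 7.92 to 8.04 in B cell arrays. Of 3 measured dendritic cell markers FCER1A (0.73 ± 0.15 log2) and XCR1 (0.18 ± 0.07) were higher in monocytes by limma and LILRA4 did not pass, with 1 of the 3 higher with all 20 arrays, with no block or without the animal of rank 1, 2 or 4, and 0 with dim probes left out.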
